A study of Triticum aestivum with 36 samples.

Results

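The genes described here are those with a gene symbol in the array annotation whose transcripts rose between 7 and 14 days after anthesis (DAA) in developing wheat seed and then stayed at about the same signal to 28 DAA. They were chosen on the means of the varieties C306 and Sonalika. Among the 1167 probe sets that had a symbol, were not controls, were not among the 236 probe sets that the study lists as differentially expressed, and were not histone, tubulin, rbcL, Em or Rab genes, 146 rose by at least 1 in log2 and 72 of these changed by less than 1 from 14 to 28 DAA. The 60 with the largest rise were taken. They stand for 53 of the 771 genes with a symbol on the array, because 7 genes were measured by a pair of probe sets each. The array holds 61290 probe sets in all, of which 1273 have a symbol.

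Seed of 4 Indian bread wheat varieties was measured at 7, 14 and 28 DAA, in 3 biological replications, on 36 Affymetrix Wheat Genome Arrays. C306 and Lok1 are good and Sonalika and WH291 poor for chapatti, an unleavened flat bread. All plants were grown at the same research farm, and the main spikes were tagged at anthesis and frozen at harvest. The whole seed was extracted, so that endosperm, embryo, aleurone and pericarp were measured together, and in such samples fewer cells of a type and less RNA per cell cannot be told apart. The values are log2 signals, from which the authors took away the median of the 36 arrays, probe set by probe set. A value of 0 is therefore the middle array of that probe set, and no level can be set against that of another probe set.

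In the weeks after anthesis the wheat endosperm passes from cell division to the filling of its cells with starch and storage protein, while the embryo and the aleurone layer form and prepare for drying. Cereal grain also accumulates proteins that inhibit the enzymes of attackers. Serpins are inhibitors of proteinases that act by trapping the enzyme, and several of them are abundant in the endosperm. Xylanase inhibitor proteins bind xylanases, with which fungi break down arabinoxylan in the cell wall.

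Names could be given to 10 members, through the gene IDs of the annotation and RefSeq. They are the serpins Serpin-Z2B, Serpin-Z2A and Serpin-Z1C, the xylanase inhibitor XIP-I (2 probe sets), the small heat shock protein hsp16.9A, the avenin-like storage protein gene avnla, the zeta-class glutathione S-transferase GSTZ1 (2 probe sets) and the phytochelatin synthase PCS1. The other 50 members are known in the annotation only by a LOC number, and no role is given for them here. In RefSeq (assembly IWGSC CS RefSeq v2.1), 49 member genes were placed, and 0 pairs of them lay within 10 genes of each other. Probe sets that Affymetrix marks as shared between sequences (the suffixes _x, _s and _a) made up 41.7% of the members and 33.8% of the 1167 eligible probe sets, so that signals of closely related genes may be mixed.

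Before the results, the labels of some arrays need to be stated. At 84 probe sets whose signals fell into a high and a low set of arrays, parted by a wide gap, at every stage, the calls of arrays were compared between stages. The arrays labelled WH291 14 DAA had the same call as those of Lok1 at 28 DAA at 100% of the probe sets. They had the call of WH291 at 7 and 28 DAA at only 69% and 67.9%. The arrays labelled Lok1 7 DAA had the call of the other Lok1 arrays at 54.8%. All labels were kept. The difference between 28 and 7 DAA in WH291, that between 28 and 14 DAA in Lok1 and those between C306 and Sonalika use none of these arrays except through the common variance.

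The rise that was used to choose the members, the 14 minus 7 DAA difference of the C306 and Sonalika means, ran from 8.12 for Serpin-Z2B to 1.21 for GSTZ1, with a median of 1.97 against 0.01 over the 1167 eligible probe sets. It was over 4 for 15 members and under 2 for 31. The largest rises were those of Serpin-Z2B, XIP-I, Serpin-Z2A, LOC100125738, LOC543479, LOC100037555, LOC542799 and Serpin-Z1C. The difference of the same means from 14 to 28 DAA ran from -0.97 to 0.98 with a median of -0.06. These values follow from the choice and were not tested. The first probe set outside the 60 was LOC542952 with a rise of 1.20. Just inside the limit on the later change lay LOC542813 at -0.95, LOC100125738 at -0.97 and XIP-I at 0.98, and just outside it LOC780685 at -1.01, GAG56D at -1.03 and SER1 at -1.06.

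**Figure D1:**
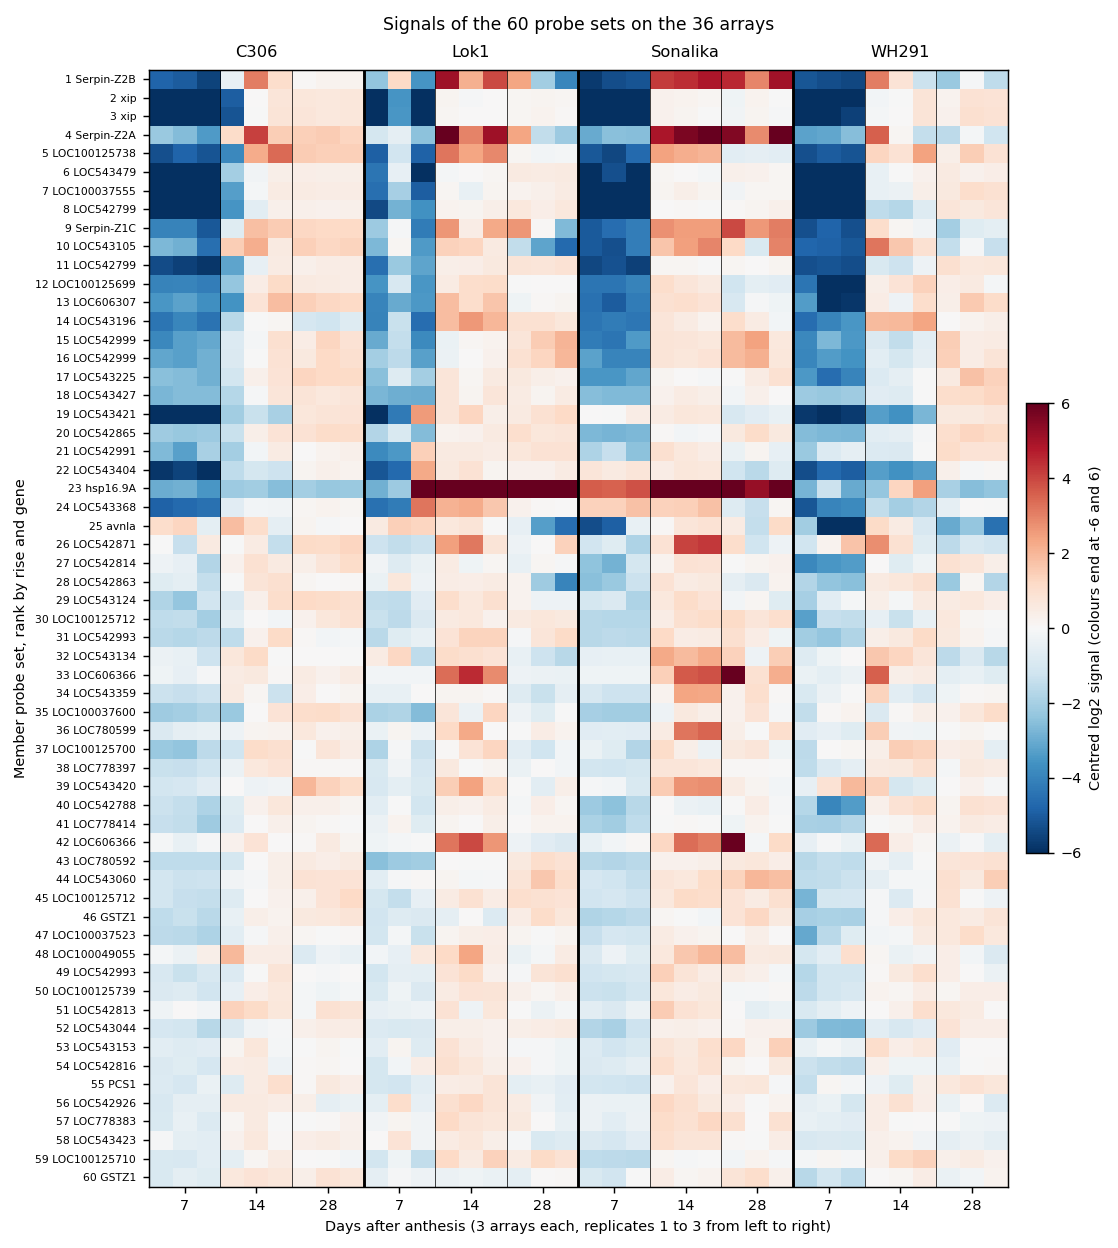
Centred log2 signal of the 60 probe sets (rows, in the order of their rise, with gene name) on the 36 arrays (columns, by variety and days after anthesis, replicates 1 to 3 from left to right); blue is below and red above the median array, and colours end at -6 and 6. The arrays at 7 DAA are low in most rows, with exceptions in Sonalika (LOC543421, LOC543404, LOC543368 and hsp16.9A), in Lok1 replicates 2 and 3, and in C306 and Lok1 for avnla.

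The mean of a pair of varieties can hide what each of them did. The rise was at least 1 in 46 members in C306 and in 56 in Sonalika, against 4.43% and 7.48% of all probe sets, and the choice of members fixed most of this. It was at least 1 in both for 42, in Sonalika but not C306 for 14 and in C306 but not Sonalika for 4. In Lok1 and WH291, which were not used, it was at least 1 for 43 and 50 members, against 6.08% and 6.53%. C306 carried LOC543404, LOC543421 and LOC543368, which rose by 4.52, 4.41 and 4.31 in C306 and by -0.09, 0.45 and 0.01 in Sonalika. Sonalika carried, among others, LOC542871, avnla, hsp16.9A, LOC606366 and LOC780599, with rises of 4.30, 4.12, 3.55, 3.24 and 3.07 in Sonalika against -0.01, 0.20, 0.85, 0.65 and 0.66 in C306. Of all 60 members, 28 rose by at least 1 in all 4 varieties, against 2.02% of the 61179 probe sets that are not controls. From 14 to 28 DAA, C306 went up by 1 or more in 14 members and down in 2 (5.07% and 5.12% of all probe sets), and Sonalika up in 0 and down in 16 (4.56% and 5.63%). Lok1 went up in 4 and down in 22 (6.17% and 8.61%), and WH291 up in 16 and down in 12 (8.28% and 7.39%). Only 6 members both rose by at least 1 and then changed by less than 1 in each of the 4 varieties, namely LOC543479, LOC542993 (2 probe sets), LOC100125712, LOC100037523 and LOC100125739. The share of all probe sets with this course was not counted. The rises in Lok1, all changes in WH291 here and the counts over 4 varieties use the arrays of doubtful label. They may therefore not be those of 4 separate varieties.

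The median over the 60 members gave a plain view of the arrays. At 7 DAA it lay between -1.71 and -1.51 in C306, between -1.66 and -1.56 in Sonalika, between -2.08 and -1.76 in WH291, and between -1.21 and -0.67 in Lok1. At 14 DAA it was -0.73, 0.28 and 0.48 on the 3 arrays of C306, between 0.51 and 0.62 in Lok1, between 0.62 and 0.70 in Sonalika and between 0.01 and 0.20 in WH291. At 28 DAA all 12 arrays lay between 0.09 and 0.46. The arrays of Lok1 were thus the highest at 7 DAA, and C306 replicate 1 was the lowest at 14 DAA. That array was the lowest of the 3 for 44 members, and lay more than 1 below both others for 23, while C306 replicates 2 and 3 did so for 0 and 3 members. These counts were not made over all probe sets, so they do not show that the array was low for the members in particular. The embryo and aleurone marker list (10 probe sets) ranged from -7.19 to 0.03 over the same 3 arrays, and its part in the spread was not tested. The median SD of a member within a variety was 0.31 at 7 DAA, 0.38 at 14 DAA and 0.25 at 28 DAA (n = 3).

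**Figure D2:**
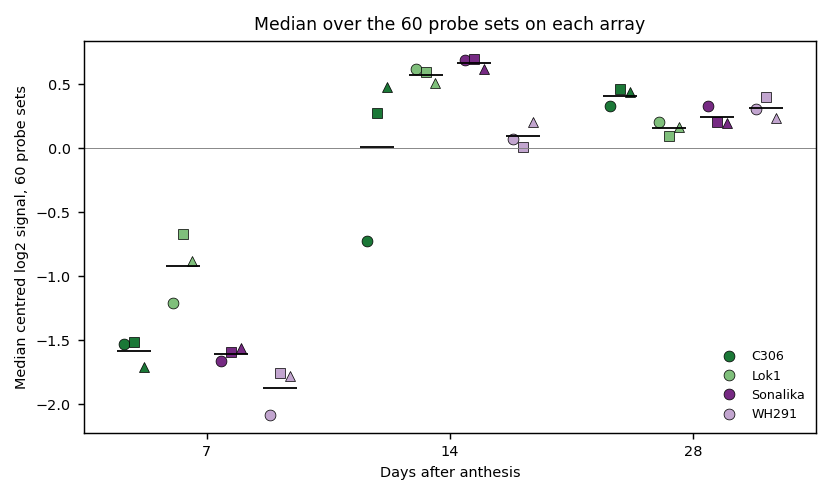
Median centred log2 signal over the 60 probe sets on each array, by days after anthesis and variety (colour); circles, squares and triangles are replicates 1, 2 and 3, and bars are means of 3 arrays. Within each variety all arrays at 7 DAA lie below the later ones, and C306 replicate 1 at 14 DAA (-0.73) lies below the other arrays of its stage and below the highest array of Lok1 at 7 DAA (-0.67).

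Lok1 and WH291 had no part in the choice of the members, and the rise was tested there with limma over all probe sets that passed a filter on low values. The filter was passed by 54 members and not by Serpin-Z2B, Serpin-Z1C, hsp16.9A, avnla, LOC542871 and LOC100125700, whose values come from the same fit without the filter. From 7 to 14 DAA, 41 of the 54 members rose and 0 fell in Lok1, where 8.98% of all probe sets rose and 11.0% fell. In WH291, 42 rose and 0 fell between these stages, where 12.3% of all probe sets rose and 16.3% fell. From 7 to 28 DAA, 39 rose and 0 fell in WH291, where 18.0% of all probe sets rose and 19.0% fell. With all 60 members and no filter, 46, 46 and 42 rose, against 9.10%, 12.4% and 18.1% of all probe sets. The medians over the 54 members were 2.10, 1.79 and 2.29, while those over all probe sets were close to 0. A member that passed the filter only through the stage where it was high was bound to differ, so the counts over the filtered members are a description.

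A rise past the test in all 3 comparisons was found for 27 of the 54 members, and in at least 1 of them for 51. The 3 that passed in none were LOC780599, LOC100049055 and LOC543359. The shares of all probe sets that rose in all 3 comparisons or in at least 1 were not counted, so these counts have no background to be set against. Of these comparisons, only that between 28 and 7 DAA in WH291 uses no array of doubtful label except through the common variance. The members with the largest rise in C306 and Sonalika also had the largest differences in WH291 between 28 and 7 DAA, with a Pearson's r of 0.719 and a Spearman's rho of 0.693 over the 60 members. This relation is a description, since the probe sets of a gene share their RNA and the arrays of a stage share the seed. The plot of the rise against the change in WH291 shows that the members from Serpin-Z2B down to LOC543427 (rise 2.65) lay at 3.34 or higher in WH291, Serpin-Z2A being the exception, while those with a smaller rise spread from -1.47 (LOC542871) to 6.48 (LOC543421).

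**Figure D3:**
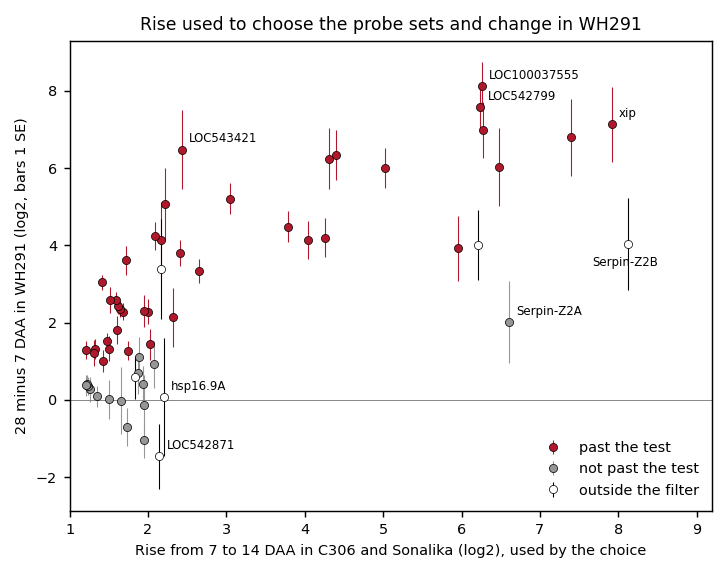
The 28 minus 7 DAA difference in WH291 (log2, bars are 1 SE from limma, 3 arrays a stage) against the rise in C306 and Sonalika that chose the members (log2). Red members passed the test at an adjusted p of 0.05, grey ones did not, and open circles lie outside the filter; Serpin-Z2A (2.02) lies below the other members with a large rise.

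A first group went from a low signal at 7 DAA to a plateau that most arrays had reached at 14 DAA. XIP-I stood for it best, and both of its probe sets gave the same picture. On the probe set with the larger rise, the signals at 7 DAA were -7.58, -7.95 and -6.57 in C306, -9.62, -9.73 and -9.59 in Sonalika and -7.14, -6.26 and -6.12 in WH291. In Lok1 they were -9.14, -3.54 and -8.15, so that replicate 2 was well above the others. At 28 DAA all 12 arrays lay within a unit or so of 0, with 0.12, 0.19 and 0.10 in Lok1 and 0.20, 0.87 and 0.83 in WH291. At 14 DAA, C306 gave -4.94, 0.04 and 0.74, and its first array was still far below the plateau that the other 11 arrays had reached. XIP-I was higher by 7.14 ± 0.98 (SE, n = 3) at 28 than at 7 DAA in WH291 (limma adjusted p = 7.19e-07) and by 6.98 ± 0.98 at 14 than at 7 DAA in Lok1 (limma adjusted p = 6.4e-06). From 14 to 28 DAA it differed by 0.10 ± 0.98 in Lok1 and 0.43 ± 0.98 in WH291, which did not pass the test.

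Other genes of the plateau group were LOC100037555, LOC542799 (2 probe sets) and LOC543479. Of this group, only LOC543479 changed by less than 1 from 14 to 28 DAA in the mean of every variety. In C306, with its low replicate 1 at 14 DAA, the mean of XIP-I went from -1.39 to 0.66. That of LOC100037555 went from -0.97 to 0.46 and that of LOC542799 from -1.29 to 0.29, each on the probe set with the larger rise. In WH291 the mean of LOC100037555 went from -0.16 to 0.85. LOC100037555 had the largest difference of all members in WH291 between 28 and 7 DAA, with signals of -6.67, -7.57 and -7.54 before and 0.57, 1.07 and 0.92 after. This was a difference of 8.12 ± 0.63 (limma adjusted p = 2.58e-11), and the arrays of the 2 stages did not come near each other. LOC542799 rose by 7.58 ± 0.56 on the probe set with the larger rise (limma adjusted p = 1.05e-11), and the other also passed the test (limma adjusted p = 1.37e-10). In WH291 part of that rise came after 14 DAA, where the differences were 2.01 ± 0.56 and 1.56 ± 0.51 (limma adjusted p = 0.00722 and 0.0215), while in Lok1 they were 0.31 ± 0.56 and 0.33 ± 0.51. The smaller of the values in WH291 missed the test when WH291 14 DAA replicate 1 or 2 or 28 DAA replicate 1 was left out (1.34 to 1.53, adjusted p up to 0.1). LOC543479 rose by 6.98 ± 0.72 from 7 to 28 DAA in WH291 (limma adjusted p = 5.3e-09) and by 3.66 ± 0.72 from 7 to 14 DAA in Lok1 (limma adjusted p = 0.000466). Its signals in Lok1 at 7 DAA were -4.37, -0.51 and -6.06, and those at 14 DAA were -0.14, 0.04 and 0.13. LOC100037555 and LOC542799 were also low on C306 14 DAA replicate 1, at -3.30 for LOC100037555 and at -3.53 and -3.17 for LOC542799, against -0.64 to 0.49 on replicates 2 and 3.

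The array labelled Lok1 7 DAA replicate 2 was more than 1 above both other arrays of its group for 14 members, replicate 3 for 5 and replicate 1 for 0. These counts, too, were not made over all probe sets. The markers of dividing tissue (28 probe sets) ranged from 0.27 to 2.23 over these 3 arrays, against 2.75 to 2.83 in WH291 and 2.23 to 2.48 in C306 at that stage. Their part in the higher values of Lok1 was not tested.

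The serpins rose in every variety and then parted. Serpin-Z2A is given in full. In C306 its signals were -2.22, -2.58 and -3.41 at 7 DAA, 1.12, 4.10 and 1.48 at 14 DAA and 1.42, 1.52 and 1.30 at 28 DAA. In Sonalika they were -3.02, -2.53 and -2.57, then 4.91, 5.64 and 6.09, then 5.57, 2.81 and 6.18. Both varieties thus kept the signal to 28 DAA, and Sonalika at a higher value than C306. The choice of members fixed much of this hold, since it limited the change of their mean from 14 to 28 DAA. In Lok1 the signals were -1.07, -0.52 and -2.45, then 6.22, 3.00 and 5.06, then 2.37, -1.46 and -2.18. In WH291 they were -3.21, -3.14 and -2.57, then 3.59, 0.10 and -1.42, then -1.58, -0.10 and -1.18. In Lok1 all arrays at 28 DAA were below all arrays at 14 DAA, and in WH291 the arrays of these stages overlapped.

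Serpin-Z2A rose by 6.11 ± 1.07 from 7 to 14 DAA in Lok1 (limma adjusted p = 0.000114) and fell by 5.18 on the log2 scale from 14 to 28 DAA (SE 1.07, limma adjusted p = 0.000438). In WH291 it rose by 3.73 ± 1.07 from 7 to 14 DAA (limma adjusted p = 0.0086), a call that was lost without WH291 14 DAA replicate 1 (2.31, adjusted p = 0.122). The difference from 7 to 28 DAA in WH291 was 2.02 ± 1.07 and did not pass the test (limma adjusted p = 0.151). C306 was lower than Sonalika by 3.44 at 28 DAA (difference -3.44 ± 1.07, limma adjusted p = 0.0487), which was lost under 23 of the 36 arrays left out in turn, with values from -4.46 to -2.78.

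Serpin-Z2B had the same shape. Its signals in Lok1 were -2.37, 1.19 and -3.52, then 5.09, 2.12 and 3.98, then 2.38, -2.07 and -3.92, and it fell by 4.93 on the log2 scale from 14 to 28 DAA (SE 1.19, limma adjusted p = 0.00222, no filter). Its difference from 14 to 28 DAA in WH291 was -2.14 ± 1.19 (limma adjusted p = 0.209). In Sonalika at 28 DAA it stood at 4.52, 2.91 and 5.04 and in C306 at 0.07, 0.22 and 0.19, a difference of -4.00 ± 1.19 (limma adjusted p = 0.0374, no filter) that was lost when any array of C306 28 DAA, or Sonalika 28 DAA replicate 1 or 3, was left out (-4.03 to -3.56). Serpin-Z1C rose by 4.01 ± 0.91 from 7 to 28 DAA in WH291 (limma adjusted p = 0.000677, no filter). From 14 to 28 DAA it differed by -1.78 ± 0.91 in Lok1 and by -1.43 ± 0.91 in WH291, which did not pass the test, and its arrays in Lok1 at 28 DAA spread from -2.67 to 2.64.

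The starchy endosperm markers (16 probe sets) were also lower at 28 than at 14 DAA in Lok1 and WH291. Their median on an array ranged from 0.67 to 0.87 at 14 DAA and from -3.91 to 0.14 at 28 DAA in Lok1, and from -0.02 to 1.03 and from -3.09 to -0.74 in WH291. In C306 and Sonalika they lay between 0.29 and 0.69 at 28 DAA. Their part in the fall of the serpins was not tested.

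**Figure D4:**
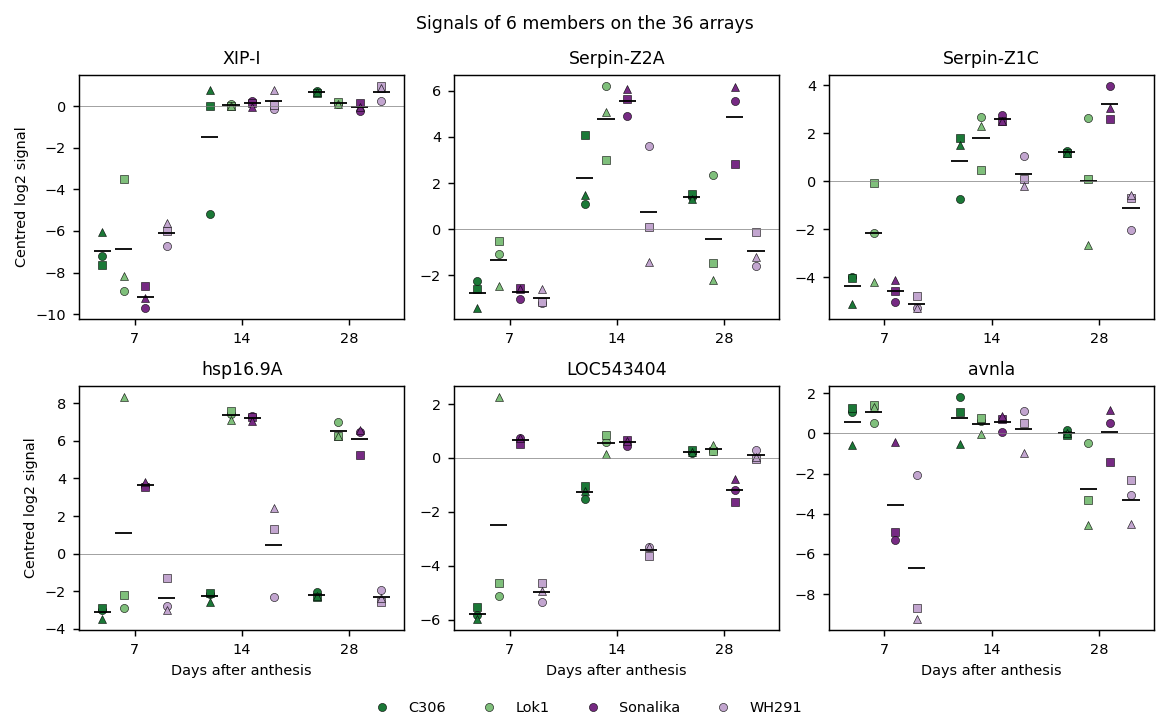
Centred log2 signal of 6 members on each array, by days after anthesis and variety (colour); circles, squares and triangles are replicates 1, 2 and 3, bars are means of 3 arrays, and the vertical scale differs between panels. XIP-I reached its plateau in all varieties except on C306 replicate 1 at 14 DAA, the serpins fell or spread at 28 DAA in Lok1 and WH291, hsp16.9A was higher in Sonalika than in C306, LOC543404 was already up at 7 DAA in Sonalika, and avnla was low at 7 DAA in Sonalika and WH291.

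A second group differed most between C306 and Sonalika at the start, at 7 DAA. LOC543404 had signals of -5.84, -5.53 and -5.98 in C306 at 7 DAA and of 0.73, 0.52 and 0.75 in Sonalika, so that Sonalika was far above C306. At 28 DAA it was lower in Sonalika than at 7 DAA on all arrays, between -1.62 and -0.79. LOC543421 gave -6.14, -6.12 and -6.32 in C306 and 0.01, -0.01 and 0.45 in Sonalika. LOC543368 gave -4.84, -4.65 and -4.48 in C306 and 1.38, 1.39 and 1.74 in Sonalika. The arrays of the 2 varieties were far apart for each of the 3 genes. The C306 minus Sonalika difference at 7 DAA was -6.45 ± 0.93 for LOC543404, -6.34 ± 1.02 for LOC543421 and -6.16 ± 1.00 for LOC543368 (limma adjusted p = 2.32e-05, 0.000104 and 0.00012). They were the 3 members called lower in C306 at that stage, with 1 called higher (LOC542814, 1.28 ± 0.35), where 2.38% of all probe sets were lower and 3.74% higher. The call of LOC542814 was lost when replicate 1 or 2 of either variety at 7 DAA was left out (0.91 to 1.12).

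At 14 DAA the same genes were still lower in C306, with differences of -1.84, -2.38 and -1.86, and at 28 DAA they were higher in C306 by 1.44, 1.47 and 0.83, none of which passed the test over all arrays. LOC543404 in WH291 was at -5.33, -4.64 and -4.94 at 7 DAA, at -3.31, -3.65 and -3.29 at 14 DAA and at 0.31, -0.05 and 0.05 at 28 DAA. From 14 to 28 DAA it rose by 3.52 ± 0.93 and LOC543421 by 3.85 ± 1.02 in WH291 (limma adjusted p = 0.00454 and 0.0045), the largest differences of any member in that comparison. The 14 DAA values here come from the arrays of doubtful label. The difference of LOC543404 in WH291 between 7 and 14 DAA was 1.56, and it was -2.72 with quantile normalization (limma adjusted p = 0.0166).

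In Lok1 at 7 DAA the replicates of these genes were split. LOC543404 was at -5.13, -4.66 and 2.28, LOC543421 at -5.95, -4.25 and 2.58, and LOC543368 at -4.50, -4.19 and 3.20. Replicates 1 and 2 had the signal of C306 and WH291, and replicate 3 lay above even Sonalika. Because limma uses a common variance for all groups, that array set the errors of all comparisons of these genes. Without it, the SE of LOC543404 dropped from 0.93 to 0.20, and the C306 minus Sonalika differences passed the test at 14 DAA for all 3 genes (limma adjusted p = 2.28e-07, 2.19e-06 and 6.77e-05) and at 28 DAA for LOC543404 and LOC543421 (limma adjusted p = 1.18e-05 and 0.00143). The rise in C306 minus that in Sonalika was 4.61 ± 1.32 for LOC543404, 3.97 ± 1.44 for LOC543421 and 4.30 ± 1.41 for LOC543368. These did not pass the test with all arrays (limma adjusted p = 0.075, 0.177 and 0.127) and did without Lok1 7 DAA replicate 3 (limma adjusted p = 2.68e-11, 6.54e-07 and 1.19e-07). The rise in Lok1 from 7 to 14 DAA was 3.04 for LOC543404, 3.33 for LOC543421 and 3.81 for LOC543368 with all arrays, and 5.43, 5.89 and 6.32 without that replicate. With replicate 1 or 2 left out it was between 1.62 and 2.63 and passed the test for none of them (adjusted p from 0.0709 to 0.258).

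The same array stood apart for hsp16.9A, the gene of a cytosolic chaperone that binds unfolding proteins. It was at -2.90, -2.18 and 8.35 in Lok1 at 7 DAA. Later Lok1 arrays lay between 6.24 and 7.60. In Sonalika hsp16.9A was at 3.61, 3.55 and 3.82 at 7 DAA and between 5.22 and 7.32 afterwards, while the 9 arrays of C306 lay between -3.48 and -2.02. In WH291 it was at -2.79, -1.30 and -3.01, then -2.33, 1.30 and 2.44, then -1.95, -2.57 and -2.35. The signal was thus high in Sonalika and in Lok1 from 14 DAA and low in C306, and its place among the members rested on Sonalika. C306 minus Sonalika was -6.78 ± 1.52 at 7 DAA, -9.48 ± 1.52 at 14 DAA and -8.29 ± 1.52 at 28 DAA (limma adjusted p = 0.00504, 0.000117 and 0.000555, no filter). Of the 9 arrays labelled WH291, the ones with values above 0 were replicates 2 and 3 at 14 DAA, and neither came to the level of Lok1.

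A further group was high on some arrays at 14 DAA and low on others of the same variety. LOC606366 (2 probe sets) was at 3.33, 4.48 and 2.83 in Lok1 at 14 DAA, against -0.19, -0.18 and -0.17 before and -0.30, -0.33 and -0.38 after. In Sonalika it went from -0.26, -0.27 and -0.25 to 1.41, 3.70 and 3.84 and then to 5.96, 0.91 and 2.17. In WH291 it was at 3.59, 0.35 and 0.50 at 14 DAA, and in C306 all 9 arrays lay between -0.51 and 0.58. Its transcripts formed a short peak in Lok1, where it rose by 3.73 ± 0.80 and fell by 3.88 on the log2 scale (limma adjusted p = 0.00101 and 0.000401), and the other probe set rose by 3.39 ± 0.88 and fell by 3.87.

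Others with raised values on Sonalika 14 DAA replicates 2 and 3 were LOC542871 (0.88, 4.04 and 4.26 on the 3 arrays), LOC780599 (0.50, 3.19 and 3.50), LOC543420 (1.51, 2.69 and 2.78) and LOC543359 (0.19, 2.36 and 2.30). In each of these genes WH291 replicate 1 was the highest of its group at 14 DAA, at 2.80, 1.49, 1.38 and 1.35. In C306 at 14 DAA they lay between -1.43 and 0.53. The C306 minus Sonalika differences at 14 DAA were -3.37 ± 0.85 for LOC542871 (no filter), -2.36 ± 0.52 for LOC780599, -2.50 ± 0.50 for LOC543420 and -1.83 ± 0.49 for LOC543359 (limma adjusted p = 0.014, 0.00499, 0.00174 and 0.0212). Those of LOC542871, LOC780599 and LOC543359 missed the test without Sonalika replicate 2 or 3 of that stage, and those of LOC542871 and LOC543359 also without C306 replicate 3 (adjusted p up to 0.118, 0.0735 and 0.157).

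At 14 DAA, 7 members were lower in C306 than in Sonalika and 0 higher, where 2.68% of all probe sets were lower and 2.88% higher. With no filter 9 of 60 were lower and 0 higher, where 2.80% and 2.90% of all probe sets were. Besides those named above the members lower in C306 were LOC100125712, LOC543060, LOC543044 and LOC778383, at -1.09 to -0.70. The call of LOC543044 was lost without C306 14 DAA replicate 1 or any array of Sonalika 14 DAA (-0.72 to -0.46), and that of LOC778383 without C306 14 DAA replicate 1 or 3 or Sonalika 14 DAA replicate 1 or 3 (-0.85 to -0.75). That of LOC100125712 was lost under 20 of the 36 arrays left out in turn (-1.22 to -0.92), and that of LOC543060 when C306 lost replicate 1 or 2, or Sonalika replicate 1 or 3, of that stage (-0.83 to -0.65). The count at 14 DAA dropped to 3 when C306 replicate 1 or Sonalika replicate 2 of that stage was left out and to 1 when Sonalika replicate 3 was, and it went up to 11 when C306 replicate 3 was left out and to 12 when Lok1 7 DAA replicate 3 was. At 28 DAA, 4 members were lower (Serpin-Z2A, LOC606366, LOC543060 and LOC543153) and 1 higher (LOC543124, 1.36), where 3.45% of all probe sets were lower and 3.39% higher. With 1 array left out, the number of differences at 28 DAA was between 1 and 8. It was 1 without C306 28 DAA replicate 2 or 3 or Sonalika 28 DAA replicate 1, 2 without C306 28 DAA replicate 1 or Sonalika 28 DAA replicate 3, and 8 without C306 14 DAA replicate 1 or Lok1 7 DAA replicate 3. It was 3 when an array of C306 or Sonalika at 7 DAA was left out, and also when WH291 lost replicate 2 at 7 DAA or replicate 2 or 3 at 28 DAA. The difference of LOC606366 was lost under 17 of the 36 arrays left out in turn and fell to -1.13 when Sonalika 28 DAA replicate 1 was left out, and that of LOC543153 was lost without any array of C306 28 DAA or without Sonalika 28 DAA replicate 1 or 3 (-0.96 to -0.68). That of LOC543060 was lost without Sonalika 28 DAA replicate 2 (-0.75), and that of LOC543124 when any array of C306 at 28 DAA, or replicate 1 or 3 of Sonalika, was left out (1.13 to 1.42).

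The rise itself was tested between C306 and Sonalika as well. It was smaller in C306 for 1 member, LOC543044 (-1.08 ± 0.26, limma adjusted p = 0.036), and larger for 0, where 0.755% and 0.589% of all probe sets passed the test. At an unadjusted p of 0.05, 19 of the 54 members differed, and 8453 of all 60130 probe sets tested did. The count past the adjusted test turned on the processing, with 3 larger and 14 smaller under array weights, 3 larger and 1 smaller without the arrays of doubtful label, and 0 with the plain variance or cyclic loess. LOC543044 was at -1.02, -1.09 and -1.67 in C306 at 7 DAA and at -0.86, -0.23 and -0.09 at 14 DAA, and in Sonalika at -1.75, -1.93 and -1.24 and then 0.30, 0.35 and 0.27. The call was lost without C306 7 DAA replicate 1 or 2, C306 14 DAA replicate 1, Sonalika 7 DAA replicate 1 or 2 or any array of Sonalika 14 DAA, with differences from -1.10 to -0.84.

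Whether the members held after 14 DAA was tested in the varieties that did not serve to choose them. In Lok1, 14 members fell and 5 rose from 14 to 28 DAA, where 12.9% of all probe sets fell and 14.1% rose, and the median difference was -0.34. With no filter 15 of 60 fell, against 13.0% of all probe sets. In WH291, 7 fell and 15 rose, where 12.4% of all probe sets fell and 14.6% rose, with a median of 0.23. Of the 14 that fell in Lok1, 6 also fell in WH291, and these were 6 of the 7 there (LOC543105, LOC543196, LOC542863, LOC543134, LOC542926 and LOC543423). The share of all probe sets that fell in both was not counted. The comparison in WH291 rests on the arrays labelled WH291 14 DAA, which had the calls of Lok1, so the overlap may not be that of separate varieties. Without Lok1 28 DAA replicate 3 the counts in Lok1 were 9 and 3, and without WH291 28 DAA replicate 1 those in WH291 were 4 and 10.

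LOC543105 had the largest fall past the test after Serpin-Z2A and Serpin-Z2B. Its signals in Lok1 were 1.39, 1.27 and 0.52 at 14 DAA and -1.48, -3.14 and -4.68 at 28 DAA, and in WH291 they were 3.23, 1.61 and 0.90 and then -1.43, -0.10 and -1.37. It fell by 4.16 in Lok1 and by 2.88 in WH291 (SE 0.84, limma adjusted p = 0.000338 and 0.00975), the latter lost without WH291 14 DAA replicate 1 (-2.23, adjusted p = 0.0823). In C306 it stayed at 1.43, 1.26 and 1.35 at 28 DAA. In Sonalika it was at 1.67, 2.47 and 2.91 at 14 DAA and at 1.20, -0.93 and 2.98 at 28 DAA. The choice of members limited the change of the mean of C306 and Sonalika. LOC543134 fell by 2.07 in Lok1 and by 2.59 in WH291 (SE 0.48, limma adjusted p = 0.00135 and 9.61e-05). LOC542863 fell by 2.41 in Lok1, but its 3 arrays at 28 DAA were 0.20, -2.14 and -3.94, and without replicate 3 the fall was 1.42 and was not past the test (limma adjusted p = 0.0034 with all arrays and 0.0641 without). In WH291 its fall of 2.02 was lost without 28 DAA replicate 1 or 3 (-1.78 to -1.54).

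Smaller falls in Lok1 were those of LOC100125738 (2.89), LOC543420 (1.75), LOC100049055 (1.35), LOC543196 (1.33), PCS1 (1.12), LOC542926 (1.11), LOC543423 (1.08) and LOC778383 (0.83), each as a drop in log2. The calls of LOC543196 and LOC100049055 were close to the threshold (limma adjusted p = 0.048 and 0.0479) and were lost under 26 and 21 of the 36 arrays left out in turn, and that of LOC100125738 was lost without any array of Lok1 at 14 or 28 DAA (-3.12 to -2.69). In Lok1 the calls of LOC543420 (without replicate 2 of either stage), LOC542926 (28 DAA replicate 3), LOC778383 (14 DAA replicate 1 or 28 DAA replicate 3) and PCS1 (14 DAA replicate 3) were lost too, at -1.48 to -1.38, -0.85, -0.67 to -0.57 and -1.02. In WH291 the calls of LOC542926 (without 14 DAA replicate 2 or 28 DAA replicate 3) and LOC543423 (without replicate 1 at either stage, 14 DAA replicate 2 or 28 DAA replicate 3) were lost, at -0.81 to -0.78 and -0.59 to -0.51. PCS1, the enzyme that makes metal-binding phytochelatins from glutathione, went the other way in WH291, where it rose by 0.95 ± 0.34 (limma adjusted p = 0.037). That rise was lost when any array of WH291 at 14 DAA other than replicate 3, or any at 28 DAA, was left out (0.70 to 0.99). In Lok1 its signals were 0.44, 0.47 and 0.75 at 14 DAA and -0.57, -0.44 and -0.69 at 28 DAA, and in WH291 -0.29, -0.71 and 0.33 and then 0.65, 0.86 and 0.66.

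Members that went on rising after 14 DAA in both Lok1 and WH291 were LOC542999, LOC543060 and LOC780592. LOC542999 rose by 1.45 ± 0.50 and 1.41 ± 0.40 on its probe sets in Lok1 and by 1.82 ± 0.50 and 1.63 ± 0.40 in WH291 (limma adjusted p from 0.00249 to 0.0296). In Lok1 its calls missed the test without 28 DAA replicate 3, and that of the first probe set also without replicate 1 or 2 at 14 DAA or replicate 2 at 28 DAA (1.12 to 1.53), and in WH291 the first missed it without 28 DAA replicate 1 (1.48, adjusted p = 0.0502). LOC543060 rose by 1.16 ± 0.22 and 1.25 ± 0.22 and LOC780592 by 0.85 ± 0.20 and 1.08 ± 0.20 (limma adjusted p from 6.56e-05 to 0.00177). GSTZ1, an enzyme of tyrosine breakdown, rose by 1.19 ± 0.21 in Lok1 on 1 of its probe sets (limma adjusted p = 7.37e-05), while the other gave 0.17 ± 0.23. Its probe sets had the lowest correlation over the 12 groups of the 7 genes with a pair (r = 0.834), the other 6 pairs lying between 0.983 and 1.

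**Figure D5:**
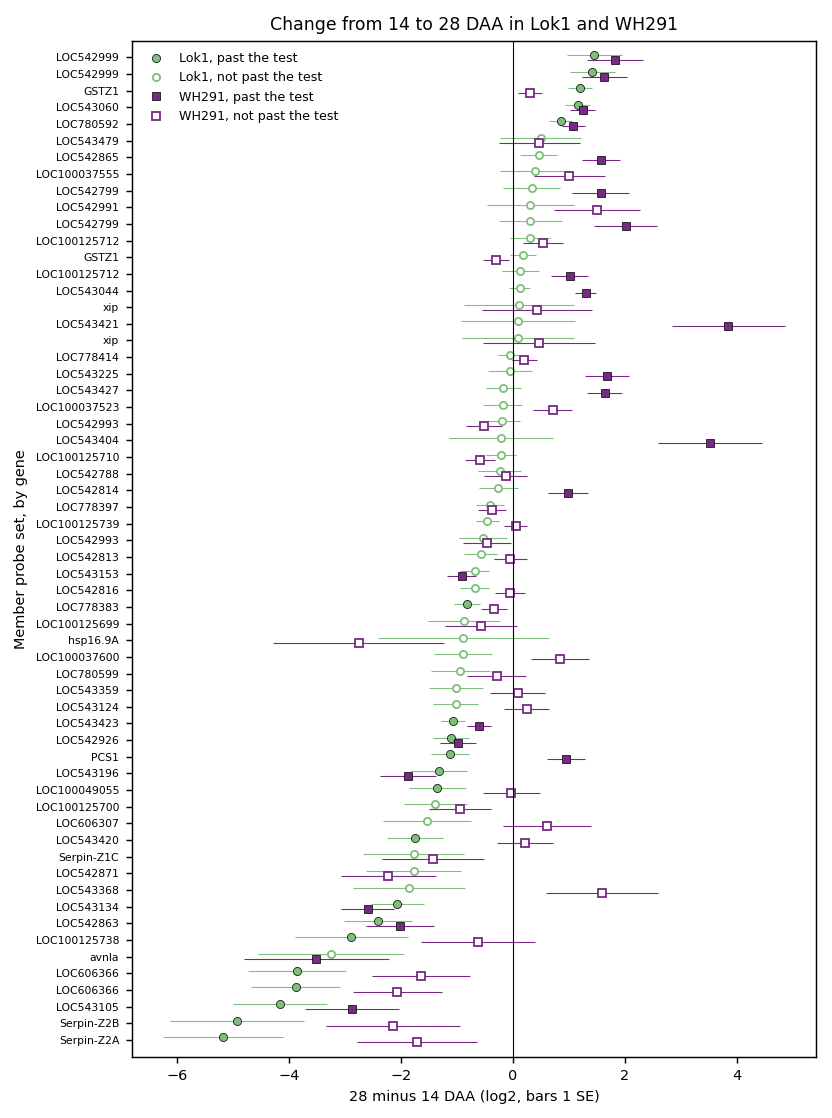
The 28 minus 14 DAA difference of each member in Lok1 (circles) and WH291 (squares) in log2, with bars of 1 SE from limma (3 arrays a stage) and members in the order of Lok1; filled symbols passed the test at an adjusted p of 0.05. Serpin-Z2A and Serpin-Z2B are lowest in Lok1 (-5.18 and -4.93), and LOC543421 and LOC543404 are highest in WH291 (3.85 and 3.52).

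Members passed the test of good against poor varieties at 7 DAA only. At the later stages few of all probe sets passed it either. The test took the 6 arrays of a class at a stage as replicates, but they come from only 2 varieties. A difference of chapatti quality therefore cannot be told apart from other differences between these varieties. At 7 DAA 11 members were higher in the good varieties and 0 lower, where 6.58% of all probe sets were higher and 6.31% lower. LOC542814 had the largest difference among them. Its 6 arrays in the good varieties had a lowest value of -1.75, a median of -0.45 and a highest value of -0.21, and those in the poor varieties -3.88, -3.11 and -1.06. Apart from C306 replicate 3 (-1.75) and Sonalika replicate 3 (-1.06) the groups did not overlap, and the difference was 2.19 ± 0.35 (limma adjusted p = 8.44e-05). The others were LOC100125699 (1.82), LOC100037555 (1.67), LOC542863 (1.65), LOC542788 (1.49), LOC543225 (1.47), LOC543044 (1.00), LOC778414 (0.89), LOC543423 (0.77), LOC542865 (0.72) and GSTZ1 (0.62). The call of LOC100037555 was lost under 30 of the 36 arrays left out in turn, with values from 1.02 to 2.12. The calls of LOC542863 and LOC543423 were lost when WH291 7 DAA replicate 2 or 3, or replicate 2 of Lok1 at that stage, was left out, that of LOC543423 also without Lok1 7 DAA replicate 1, and that of GSTZ1 without Lok1 7 DAA replicate 2 (lowest values 1.42, 0.59 and 0.52). The number was 5 without Lok1 7 DAA replicate 2 and 6 without WH291 7 DAA replicate 2 or 3. The calls of LOC100125699 (with replicate 2 of Lok1, or replicate 2 or 3 of WH291, left out) and LOC542865 (under 8 of the 12 arrays of this stage) were lost too, at 1.34 to 1.52 and 0.52 to 0.75. Without all arrays labelled Lok1 7 DAA and WH291 14 DAA, 2 were higher and 1 lower. Quantile normalization left 1 of the 54 members higher, cyclic loess 1 of the 22 it tested, and array weights gave 9 higher and 3 lower. Without Lok1 7 DAA replicate 3 alone, LOC543404 and LOC543368 were lower in the good varieties (-3.28 ± 0.97 and -3.13 ± 0.95, limma adjusted p = 0.0233 and 0.0274).

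The avenin-like gene avnla, a relative of the gluten proteins, had a larger difference still, but did not pass the filter. In the good varieties at 7 DAA it was at 1.05, 1.27 and -0.58 in C306 and at 0.54, 1.42 and 1.30 in Lok1. In the poor varieties it was at -5.30, -4.91 and -0.44 in Sonalika and at -2.08, -8.71 and -9.24 in WH291. It was higher on 5 of the 6 arrays of the good varieties than on any of the poor ones, and Sonalika replicate 3 and WH291 replicate 1 lay nearest to them. Good minus Poor was 5.95 ± 1.08 (limma adjusted p = 0.000382, no filter), and the starchy endosperm markers had the same split at that stage, with array medians from -1.97 to 0.60 in the good and from -8.41 to -1.47 in the poor varieties. Their part in this difference was not tested. The marker list was not cleared of the 236 probe sets that the study lists. Those were picked for a difference between good and poor varieties on these same arrays, so that choice may have set part of the split of the markers. In WH291 avnla rose by 6.90 ± 1.30 from 7 to 14 DAA (limma adjusted p = 0.000141) and fell by 3.51 from 14 to 28 DAA (SE 1.30, limma adjusted p = 0.0445), the fall being lost under 9 of the 36 arrays left out in turn (-3.64 to -2.91). In Lok1 it differed by -0.62 ± 1.30 and then by -3.25 ± 1.30, neither past the test.

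At 14 DAA and at 28 DAA, 0 members differed between good and poor varieties in either direction by limma, where 0.0116% of all probe sets were higher and as many lower at 14 DAA, and 1.40% were higher and 0.783% lower at 28 DAA. At an unadjusted p of 0.05, 1 of the 54 members differed at each of these stages, and 4363 and 7373 of all 60130 probe sets tested did. A fit with the plain variance of each probe set gave 0 calls at both stages too. The poor varieties at 14 DAA include the arrays labelled WH291 14 DAA, which had the calls of Lok1. Without the arrays of doubtful label, 0 members passed the test at either stage. At 14 DAA, 9 members then differed at an unadjusted p of 0.05, a count with no share of all probe sets beside it.

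Probe sets of storage protein, defence and redox genes that were not members were looked at for their own stage course. Over all 60130 probe sets tested, 5401 rose in Lok1 and 7392 in WH291 from 7 to 14 DAA, and 7735 and 7467 fell from 14 to 28 DAA. The rises to 14 DAA, and the falls in WH291, rest on arrays of doubtful label. Of the 9 probe sets of gliadins and glutenins that passed the filter, 3 rose in Lok1 and 9 in WH291 from 7 to 14 DAA, and from 14 to 28 DAA 5 fell in Lok1 and 4 in WH291. Of the 4 probe sets of a lipid transfer protein (LTP3) and of a gene annotated as Pur-A1 and as thionin, which is among those the study lists, 2 rose in Lok1 and 3 in WH291, and 4 and 3 of them fell afterwards. LTP3 rose by 5.88 and fell by 4.23 in Lok1 on 1 of its probe sets, a course like that of Serpin-Z2A. Of the 3 other redox probe sets, a further one of GSTZ1 rose by 1.37 and one of the peroxiredoxin PER1 by 8.82 from 7 to 28 DAA in WH291. Member genes had 32 other probe sets on the array. Of these 20 rose by less than 1, 7 changed by 1 or more from 14 to 28 DAA, 3 ranked below the 60 and 2 were in the study's list, so that probe sets of a gene need not share its course.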

How the data were processed

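The deposited values are log2 signals. The authors hybridized biotin-labelled cRNA of whole seed, normalized the cell intensities with RMA in GeneSpring and took away each probe set's median of the 36 arrays (checked, it is 0). Signal over background is unknown after centring, and the number of arrays limits the precision. Of 630 array pairs none held more than 0.197% equal values.

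The members, gene lists and tests were chosen with earlier results of these data known, so that counts of members are descriptions. The array annotation gave 1 symbol to 1273 probe sets, several to 0 and none to 60017. Of these, 1272 matched a RefSeq gene ID and 200 had a name, so that the keyword lists of roles hold few genes. No sequences were used here.

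The filter asked that in 1 or more of the 6 quality and stage groups every array was at or above its 20th percentile (60130 probe sets). On centred values this filter acts on variation more than on level. Models with 12 groups (variety and stage) and with 6 groups were fitted with limma 3.58.1 in R 4.3.3 with Benjamini-Hochberg adjustment over these probe sets and a threshold of 0.05. SE are those of limma. The fit was tested on simulated data first. Python 3.11.15, numpy 2.4.6, pandas 2.3.3 and matplotlib 3.10.9 made the tables and plots. For the label check a probe set was called high or low in an array by the widest gap among the 12 arrays of its stage, where that gap was over 2 at each stage and replicates had 1 call.

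Values are given in full for up to 4 members of each role list with the largest difference in WH291 between 28 and 7 DAA, the 3 highest and 3 lowest for C306 minus Sonalika at 7 DAA, those that fell past the test in Lok1 or WH291, and the first and last by rank. The rule does not cover all members given with values. Others, such as LOC542871, LOC780599, LOC543359, LOC542814, LOC542999, LOC543060 and LOC780592, were picked with their values in view. Alternatives were no filter, cyclic loess, quantile normalization, array weights, a replicate block, the plain variance that the methods' analysis of variance uses, 1 probe set per gene, the arrays of doubtful label left out and each array left out. The fits of the 6 members outside the filter were added after seeing the data.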

Additional observations from a re-analysis of the deposited data

Results flagged for a closer look

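In 192 groups of 6 arrays, 24 values lay so far from the rest that the gap to the nearest array took up most of the range (Dixon's test). Chance flags about 1 in 20 groups drawn from 1 population. The groups here pool 2 varieties, so that rate need not hold for them. The probe sets also share arrays, so that the flags are not separate events. C306 14 DAA replicate 1 was low in the good varieties for XIP-I (-5.16 and -4.94), LOC542799 (-3.17 and -3.53), LOC100125738 (-3.88), LOC100037555 (-3.30), LOC543479 (-2.05) and PCS1 (-0.75), and for the median over all members (-0.73). Lok1 7 DAA replicate 3 was high for hsp16.9A (8.35), LOC543368 (3.20), LOC543421 (2.58) and LOC543404 (2.28). Lok1 7 DAA replicate 2 was high for LOC542926 (1.06), LOC543153 (0.15), LOC100125738 (-1.15) and LOC543196 (-1.34). C306 7 DAA replicate 3 was low for LOC543044 (-1.67).

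In the poor varieties, Sonalika 28 DAA replicate 1 was high for a probe set of LOC606366 (5.93), WH291 7 DAA replicate 2 was low for the other (-0.61), and Sonalika 28 DAA replicate 3 was low for PCS1 (-0.09). WH291 7 DAA replicate 3 was low for LOC542926 (-1.04) and high for LOC100049055 (0.99), and Sonalika 7 DAA replicate 3 was high for LOC543423 (-0.68). The rise of LOC543044 differed between C306 and Sonalika by -1.08 in the test of the difference itself.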

How the results depend on the processing

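Without the filter, with array weights, with 1 probe set per gene, with the plain variance and with the replicate block, the number of members that rose stayed within 1.5 times in the 3 tests of the rise. Cyclic loess left 22 of the 54 members past the filter, and gave 15 rises from 7 to 14 DAA in Lok1, 15 in WH291 and 8 from 7 to 28 DAA in WH291, 12 changes from 14 to 28 DAA in Lok1 and 6 in WH291, 2 for C306 minus Sonalika at 7 DAA, 0 for the rise in C306 minus Sonalika and 1 for Good minus Poor at 7 DAA. Quantile normalization gave 16 for C306 minus Sonalika at 14 DAA and 1 for Good minus Poor at 7 DAA, and array weights 10, 20 and 13 for C306 minus Sonalika at 7, 14 and 28 DAA and 17 for the rise. Without the arrays labelled Lok1 7 DAA and WH291 14 DAA the counts were 13, 8 and 4 for C306 minus Sonalika at 14 DAA, 28 DAA and in the rise and 3 for Good minus Poor at 7 DAA, and the plain variance gave 2 at 28 DAA and 0 for the rise. The causes were not tested, and the other 3 comparisons of stages that need the arrays of doubtful label could not be made without them.

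With 1 array left out, the rises numbered 33 to 43 in Lok1 and 38 to 45 in WH291 from 7 to 14 DAA, and 36 to 40 from 7 to 28 DAA. The changes from 14 to 28 DAA numbered 12 to 22 in Lok1 and 14 to 24 in WH291, the differences between C306 and Sonalika 3 to 4, 1 to 12 and 1 to 8 at the 3 stages and 0 to 4 in the rise, and those between good and poor varieties 5 to 14 at 7 DAA and 0 at the later stages. Of 115 calls of the members given in full, 76 were kept whichever array was left out. Of 96 calls of the other members, 69 were kept. LOC543404 reversed with quantile normalization in WH291 from 7 to 14 DAA (-2.72 against 1.56), and LOC542865 with cyclic loess for Good minus Poor at 7 DAA (-0.10 against 0.72, adjusted p = 0.929 by limma). The replicate numbers did not pair the arrays, since the same-number correlation ran from -0.55 to 0.53 and 13 of 36 arrays correlated best with their own number, and the replicate block gave 41, 44 and 39 rises.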
